A study of Mus musculus with 24 samples.

Results

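The 10 genes described here, Mgp, Fmod, Slc22a6, Dcn, Lum, Ogn, Col1a1, Col1a2, Col3a1 and Ptgds, are genes of meningeal fibroblasts and their extracellular matrix. They were taken by name: every probe set whose platform annotation gives 1 of these symbols alone was used. This gave 23 probe sets of 45037 tested, for 10 genes of 18193 named. Fmod had 6 probe sets, Col1a2 had 3, Mgp and Lum had 1 each, and the other genes had 2 each. A probe set is a group of short probes on the array that are read together as 1 signal. The samples were 24 Affymetrix arrays of total RNA from the brains of male mice, bred over generations for how much they froze in contextual fear conditioning, a test of the memory of a place where a shock was given. The 4 groups had 6 arrays each: amygdala of high freezing mice of Line 25, amygdala of low freezing mice of Line 24, hippocampus of high freezing mice of Line 25, and hippocampus of low freezing mice of Line 24. Each direction of selection was thus represented by a single breeding line, so an effect of selection and any other difference between Line 25 and Line 24 cannot be told apart. The labels used here give no age, do not say whether RNA was pooled, and do not say whether arrays of the same number came from the same mouse. The p-values therefore measure only the spread between arrays.

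The meninges are the membranes around the brain, and their fibroblasts also follow the larger vessels inward. These cells make fibrillar collagens and the small leucine-rich proteoglycans that bind collagen fibrils and set their width and spacing. They also carry transporters that move organic anions and amino acids between cerebrospinal fluid and blood, and they make the prostaglandin D synthase that is secreted into that fluid. The parenchyma of the hippocampus and amygdala holds little of this matrix. In such tissue pieces, fewer cells of a type and less RNA per cell cannot be told apart.

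The signals below are the deposited linear array signals, on which each array had a trimmed mean of 150. Differences and their standard errors are on the scale log2(signal + 16), which understates the change of weak genes. Folds are taken from these differences, so they are ratios of signal + 16 and understate the change in the same way. A difference is called at an adjusted p under 0.05, from limma with Benjamini-Hochberg adjustment over all 45037 probe sets. Where a gene had several probe sets, the one of highest mean stands for it unless another is named. Array medians lay between 43.3 and 55.7. Amygdala arrays 7 and 8 of the high line stood apart by an actin 5′ to 3′ signal ratio of 0.301 and 0.339, against 0.497 to 0.630 on the other amygdala arrays. Hippocampus array 7 of the high line had the highest median signal. Of 3 genes known from the dentate gyrus of the hippocampus, Prox1, C1ql2 and Lct, all were higher in the hippocampus with no overlap between arrays. Of 3 genes known from the amygdala, Meis2 and Tac2 were higher there with no overlap, while Prkcd did not pass the test (difference 0.12 ± 0.09 SE, adjusted p = 0.337).

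Fmod, Ogn and Ptgds varied together between amygdala arrays, as described further on, and the 250 bases before their transcription starts are shown for that reason. The sequences are RefSeq's, on build GRCm38.p6, from a promoter table that held 6 of the 10 genes. They are written 5′ to 3′ on the strand of the gene. Capitals mark any match, on either strand, to 4 short motifs: TATAAA (the TATA box), CCAAT (the CCAAT box), GGGCGG (the GC box) and GGAATG (bound by TEAD factors).
Fmod, chr1:134037004-134037253, plus strand: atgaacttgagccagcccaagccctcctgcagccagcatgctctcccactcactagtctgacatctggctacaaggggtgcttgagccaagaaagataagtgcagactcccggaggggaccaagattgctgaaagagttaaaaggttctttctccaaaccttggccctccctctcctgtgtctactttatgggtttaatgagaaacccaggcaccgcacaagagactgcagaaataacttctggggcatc
Ogn, chr13:49607765-49608014, plus strand: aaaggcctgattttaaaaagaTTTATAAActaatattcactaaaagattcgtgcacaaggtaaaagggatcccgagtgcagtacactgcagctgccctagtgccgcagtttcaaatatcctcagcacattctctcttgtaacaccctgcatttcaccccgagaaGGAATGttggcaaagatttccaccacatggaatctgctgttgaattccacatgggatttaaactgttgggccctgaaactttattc
Ptgds, chr2:25469750-25469999, minus strand: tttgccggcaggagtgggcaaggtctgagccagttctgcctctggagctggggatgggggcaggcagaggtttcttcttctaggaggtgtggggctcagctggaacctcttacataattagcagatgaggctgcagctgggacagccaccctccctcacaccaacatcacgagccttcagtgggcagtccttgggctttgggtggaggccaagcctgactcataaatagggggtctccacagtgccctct

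The Ogn window held 2 overlapping matches to TATAAA, on opposite strands at -229 and -227 from the start, and 1 match to GGAATG at -86. The Fmod and Ptgds windows held none of the 4 motifs as spelled, so no motif of the 4 was shared by the 3 windows. Of 32851 promoter windows of this length, 12.4% held TATAAA, 33.8% held CCAAT, 32.7% held GGGCGG and 12.6% held GGAATG. A match is a description of the letters, and its absence says nothing about a factor.

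Between tissues, the matrix and fibroblast genes were lower in the amygdala. Over all 24 arrays, 15 of the 23 probe sets, of 8 genes, were called, and all 15 fell in amygdala relative to hippocampus, where 12.9% of all probe sets were called lower in amygdala and 25.8% were called in either direction. The differences of the 23 probe sets had a median of -0.57, and 22 of 23 were negative, against a median of -0.02 over all probe sets. The 2 genes without a call were Col1a1 and Slc22a6. Dcn, Lum and 1 probe set of Ogn had no overlap between the 12 amygdala and the 12 hippocampus arrays, lower in amygdala in each case, as had 2.44% of all probe sets. Without amygdala arrays 7 and 8, 14 of the 23 probe sets were called.

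**Figure D1:**
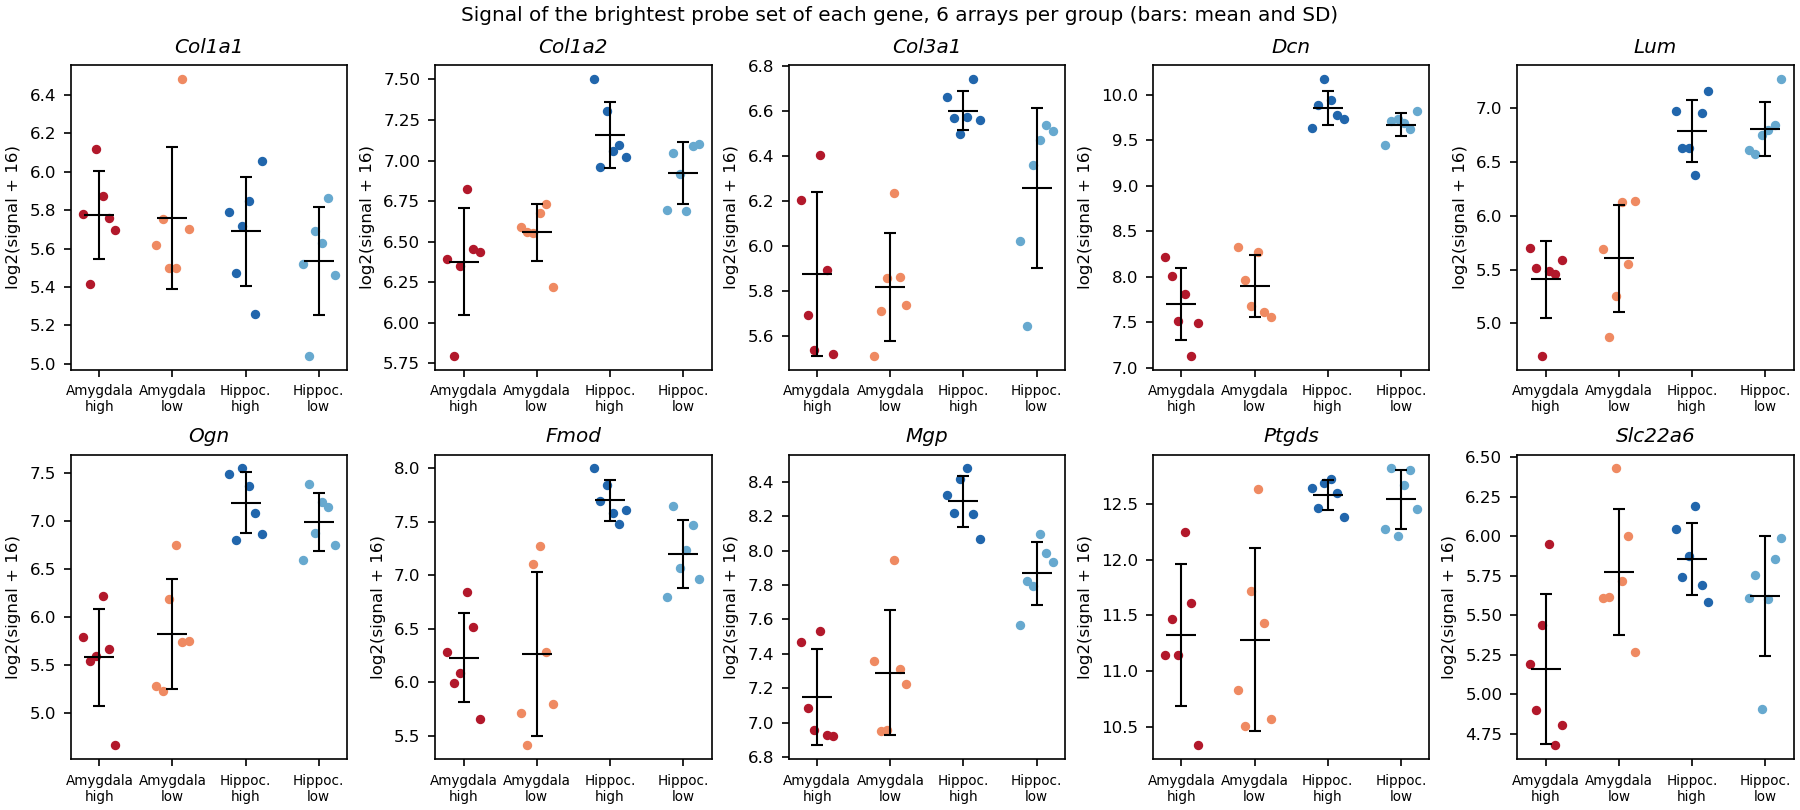
Signal of the brightest probe set of each of the 10 genes on the log2(signal + 16) scale. Each point is 1 array, the 4 groups of 6 arrays stand left to right, and the bars give the mean and SD. Dcn lies at 7.70 and 7.90 on average in the amygdala of the high and low line, below its means of 9.86 and 9.67 in the hippocampus of the same lines. The 4 Col1a1 means lie between 5.54 and 5.77.

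Some of the other measures below moved with tissue, and the part of all of them in these differences was not tested. The 5′ control probe set for 18S ribosomal RNA read 324 to 1525 in high line amygdala and 295 to 1148 in low line amygdala, against 3600 to 5800 in high line hippocampus and 5859 to 7093 in low line hippocampus, so tissue and the preparation of the arrays cannot be told apart. Of 13 markers of pericytes and smooth muscle, 5 were called lower in the amygdala and 1 higher. Their summed signal was 2326 to 2688 in high line amygdala and 2102 to 3131 in low line amygdala, against 2933 to 3494 in high line hippocampus and 2664 to 3140 in low line hippocampus. Of 14 endothelial markers 3 were called lower and none higher, and of 18 choroid plexus and ependymal markers 1 was called lower and none higher. Over all 18193 genes 2377 were called lower and 3096 higher, so the choroid plexus and ependymal markers had a smaller share of calls than all genes. Choroid plexus sums ranged widely between single arrays, from 981 to 13971 in high line amygdala and 1876 to 15251 in low line amygdala, against 2302 to 16245 in high line hippocampus and 1887 to 17496 in low line hippocampus. All such sums add linear signals, so the brightest genes weigh most. Ttr alone had a mean of 6983 in high line amygdala, where the mean sum was 7967. In low line hippocampus it had 10130, where the mean sum was 11281. Some markers of these lists read near the floor of the arrays, such as Tmem72, with group means from 3.58 to 5.62, and Cnn1, from 4.50 to 13.7.

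The main probe sets of the fibrillar collagens had tissue differences of 0.15, -0.57 and -0.58, and 2 of these 3 genes fell in the amygdala. Col1a1 and Col1a2 encode the chains of type I collagen, the main fibril of fibrous tissue, and Col3a1 encodes type III collagen, which shares those fibrils. Col1a2 (1450857_a_at, chromosome 6) read 39.6, 69.4 and 97.3 (lowest, median and highest) in high line amygdala and 58.7, 79.4 and 90.3 in low line amygdala, against 108, 119 and 165 in high line hippocampus and 87.4, 110 and 122 in low line hippocampus. It fell in the amygdala, with a difference of -0.57 ± 0.09 (SE; 1.49-fold; adjusted p = 4.96e-05, limma). The high line tissues did not overlap, while the highest low line amygdala array reached the range of the low line hippocampus arrays. Its other 2 probe sets were dimmer and not called (differences -0.42 and -0.18).

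Col3a1 (1427883_a_at, chromosome 1) read 29.9, 39.5 and 68.6 in high line amygdala and 29.6, 39.6 and 59.2 in low line amygdala, against 74.4, 79.1 and 91.0 in high line hippocampus and 34.0, 69.5 and 76.8 in low line hippocampus. It fell in the amygdala, with a difference of -0.58 ± 0.11 (SE; adjusted p = 3.39e-04, limma). The 6 high line hippocampus arrays lay close together, with a coefficient of variation of 7.29%, and above all amygdala arrays, whereas the low line hippocampus arrays ran down into the amygdala range. The second Col3a1 probe set was near the floor of the arrays, with group medians from 5.90 to 11.3, and its tissue difference was -0.0001 on the log2 scale. Col1a1 (1455494_at, chromosome 11) read 26.7 to 53.5 in high line amygdala and 29.2 to 73.4 in low line amygdala, against 22.4 to 50.6 in high line hippocampus and 16.9 to 42.2 in low line hippocampus. All 4 ranges overlapped, and the difference was 0.15 ± 0.12 (SE; adjusted p = 0.372, limma). Its dimmer probe set differed the other way, by -0.41 (adjusted p = 0.106), so the probe sets of Col1a1 gave no common direction. Both lay low on the arrays, the brighter of them at the 45.3 percentile of probe set means.

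The main probe sets of the 4 small leucine-rich proteoglycans all fell in the amygdala, with differences from -1.20 to -1.96. Dcn encodes decorin, which decorates collagen fibrils and limits their thickness. Its main probe set (1449368_at, chromosome 10) read 124, 188 and 282 in high line amygdala and 173, 212 and 305 in low line amygdala, against 777, 895 and 1136 in high line hippocampus and 681, 814 and 890 in low line hippocampus. No amygdala array reached the lowest hippocampus array. Dcn fell in the amygdala, with a difference of -1.96 ± 0.11 (SE; 3.89-fold; adjusted p = 2.04e-12, limma), the largest difference among the 23 probe sets. The second Dcn probe set had group medians from 10.1 to 24.1 and was not called (difference -0.33, adjusted p = 0.206).

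Lum encodes lumican, another regulator of collagen fibrils and the next gene to Dcn on chromosome 10 in RefSeq's gene order. It read 9.98, 29.3 and 36.1 in high line amygdala and 13.3, 33.4 and 54.2 in low line amygdala, against 67, 95.3 and 127 in high line hippocampus and 79.3, 93.3 and 138 in low line hippocampus. The tissues did not overlap in either line, and Lum fell in the amygdala, with a difference of -1.29 ± 0.14 (SE; 2.44-fold; adjusted p = 1.39e-07, limma).

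Ogn encodes osteoglycin, also called mimecan. Its brighter probe set (1419663_at, chromosome 13) read 9.31, 33.5 and 58.3 in high line amygdala and 21.4, 37.5 and 91.7 in low line amygdala, against 95.9, 134 and 172 in high line hippocampus and 80.9, 114 and 152 in low line hippocampus. The highest low line amygdala array, array 4, lay above the lowest hippocampus array, and the other amygdala arrays lay below it. The 2 Ogn probe sets fell in the amygdala, with differences of -1.40 ± 0.17 and -1.47 ± 0.13 (SE; adjusted p = 8.77e-07 and 3.26e-09, limma).

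Fmod encodes fibromodulin, which binds the same fibrils and guides their crosslinking. Its brightest probe set (1456084_x_at, chromosome 1) read 34.3, 56.8 and 98.5 in high line amygdala and 26.6, 50.7 and 139 in low line amygdala, against 163, 185 and 240 in high line hippocampus and 95.3, 127 and 185 in low line hippocampus. In the high line the tissues did not overlap, and in the low line amygdala arrays 3 and 4 entered the hippocampus range. This probe set fell in the amygdala, with a difference of -1.20 ± 0.18 (SE; 2.30-fold; adjusted p = 1.91e-05, limma). The other 5 Fmod probe sets were dimmer and all fell as well, with differences from -0.42 to -0.66, and 5 of the 6 Fmod probe sets are of the _x_at kind, whose probes may also bind other transcripts.

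**Figure D2:**
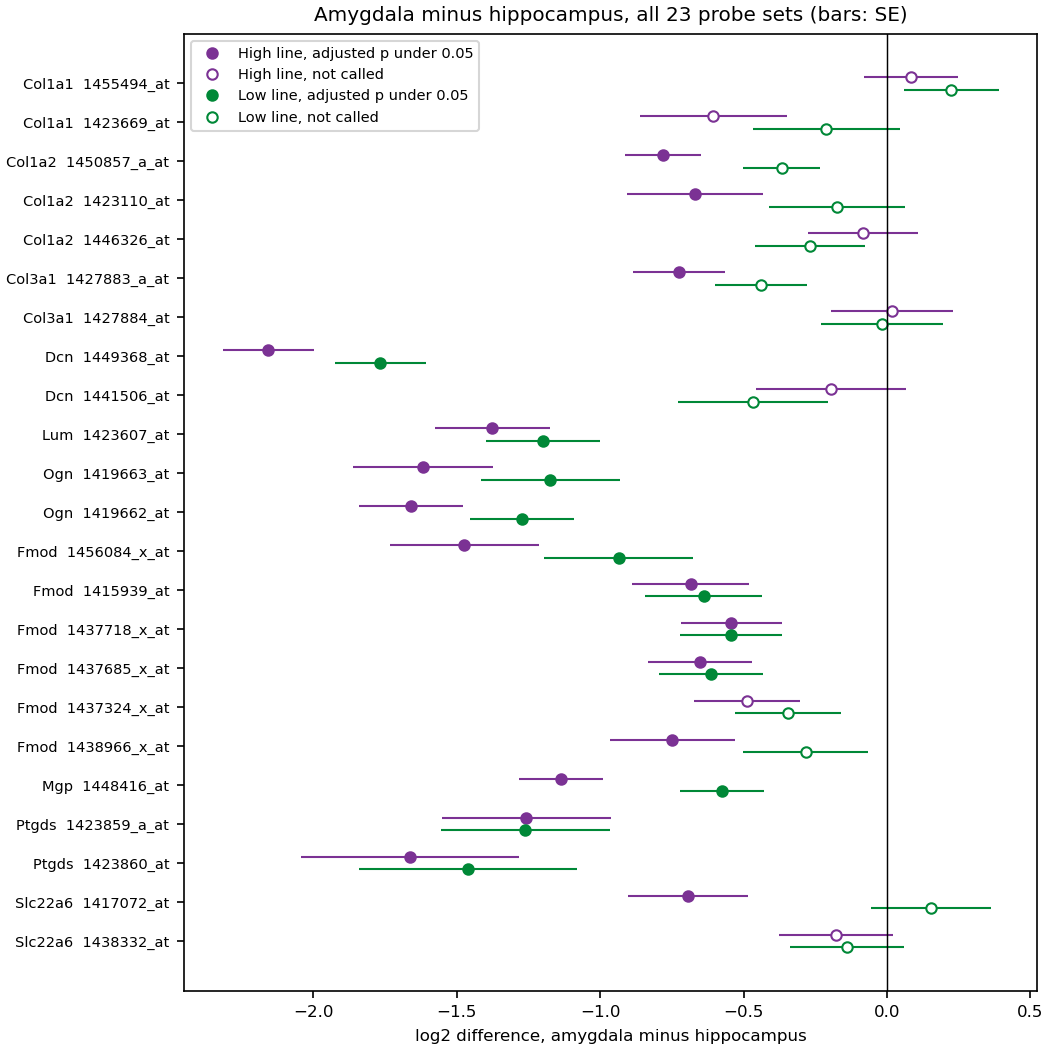
Difference of amygdala minus hippocampus for all 23 probe sets, on the log2(signal + 16) scale, with the high line drawn above the low line in each row. Bars are SE and filled points were called. Dcn lies farthest left, at -2.16 in the high line and -1.77 in the low line, and Col1a1 and the second Col3a1 probe set lie on both sides of or near 0.

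Mgp encodes matrix Gla protein, a secreted inhibitor of calcification made by fibroblasts and vascular smooth muscle. It read 105, 114 and 169 in high line amygdala and 108, 138 and 231 in low line amygdala, against 253, 293 and 341 in high line hippocampus and 174, 220 and 258 in low line hippocampus. In the high line all amygdala arrays lay below all hippocampus arrays, and in the low line 1 amygdala array, array 4, entered the hippocampus range. Mgp (1448416_at, chromosome 6) fell in the amygdala, with a difference of -0.86 ± 0.10 (SE; 1.81-fold; adjusted p = 6.35e-07, limma).

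Ptgds encodes the lipocalin-type prostaglandin D synthase, which is made by meningeal fibroblasts, choroid plexus and oligodendrocytes. Its brighter probe set (1423859_a_at, chromosome 2) read 1275, 2530 and 4866 in high line amygdala and 1439, 2271 and 6352 in low line amygdala, against 5326, 6283 and 6740 in high line hippocampus and 4741, 6051 and 7220 in low line hippocampus. The amygdala arrays were widely spread in both lines, with coefficients of variation of 43.8% in the high line and 65.2% in the low line, and the hippocampus arrays lay close together, at 9.04% and 18.1%. The 2 probe sets fell in the amygdala, with differences of -1.26 ± 0.21 and -1.56 ± 0.27 (SE; adjusted p = 5.18e-05 and 8.49e-05, limma). Oligodendrocyte markers moved with tissue too: 10 of 13 were called lower in the amygdala, and their sums were 12838 to 15296 in high line amygdala and 12869 to 14936 in low line amygdala, against 15424 to 22511 in high line hippocampus and 17245 to 20904 in low line hippocampus. Mbp weighed most in this sum, with a mean of 7266 in high line amygdala, where the mean sum was 13923. Within a tissue, Ptgds and the oligodendrocyte sum had Pearson r = -0.06 and Spearman rho = -0.08 over 12 amygdala arrays and 0.03 and -0.06 over 12 hippocampus arrays (permutation p for r 0.860 and 0.934, for rho 0.801 and 0.853; adjusted over 220 relations 0.955 and 0.978 for r, and 0.957 in both tissues for rho). Leaving out the 2 arrays farthest from the median of the oligodendrocyte sum gave r = -0.40 in amygdala and 0.11 in hippocampus. The relation of Ptgds to the choroid plexus sum was not called in either tissue. With 12 arrays and adjustment over 220 relations, the lack of a call does not show that there is no relation.

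Slc22a6 encodes the organic anion transporter OAT1, which takes anions up into cells. It (1417072_at, chromosome 19) read 9.63, 17.2 and 45.9 in high line amygdala and 22.5, 34.8 and 70.1 in low line amygdala, against 32, 40.1 and 56.9 in high line hippocampus and 14, 35.4 and 47.5 in low line hippocampus. All 4 ranges overlapped, and over both lines neither of its probe sets was called (differences -0.27 and -0.16).

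Within the high line, 16 of 23 probe sets, of 9 genes, were called, all lower in the amygdala, where 10% of all probe sets were called lower and 19.1% in either direction. In 11 of the 23 the high line amygdala and hippocampus arrays did not overlap, as in 5.19% of all probe sets in that direction. Slc22a6 was among the calls, at -0.69 ± 0.21 (SE; adjusted p = 0.0220, limma). That call was lost without high line amygdala array 8, 11 or 12, and without amygdala arrays 7 and 8 together, when 11 probe sets were called. Within the low line, 11 of 23 probe sets, of 6 genes, were called, again all lower in the amygdala, where 6.47% of all probe sets were called lower and 13.5% in either direction. The groups did not overlap in 3 of the 23, Dcn, Lum and 1 Ogn probe set, as in 4.46% of all probe sets in that direction. Col3a1 at -0.44 and Col1a2 at -0.37 did not pass in the low line (adjusted p = 0.0745 and 0.0749, limma). The difference between the lines in these tissue contrasts was itself tested, as given further on, and no probe set of the 23 passed.

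By the main probe set, 8 of the 10 genes had both hippocampus groups above both amygdala groups in mean log2 signal. In 7 of these 8, Mgp, Fmod, Dcn, Ogn, Col1a2, Col3a1 and Ptgds, high line hippocampus stood first and low line hippocampus second, and in Lum the 2 were reversed by 0.02 log2 units. Within a tissue the 2 lines did not differ by a call for any of the 10 genes. Col1a1 had its amygdala groups first, and Slc22a6 ran from high line hippocampus over low line amygdala and low line hippocampus to high line amygdala.

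Between the lines within the hippocampus, none of the 23 probe sets was called, where 0.0222% of all probe sets, 10 in number, were called. At an unadjusted p under 0.05 there were 4 of 23, against 8.97% of all probe sets. None of the 23 separated the 2 lines without overlap, against 0.637% of all probe sets. Mgp had means of 298 ± 32.4 in high line hippocampus and 219 ± 29.2 in low line hippocampus (SD, n = 6 each). Its difference was 0.42 ± 0.10 (SE; adjusted p = 0.268, limma), and the alternatives gave differences of 0.35 to 0.47. Fmod had means of 194 ± 28.5 in high line hippocampus and 134 ± 33.8 in low line hippocampus (SD, n = 6 each), a difference of 0.50 ± 0.15 (SE; adjusted p = 0.380, limma). Its other 5 probe sets differed by -0.07 to 0.19. The other 2 under the unadjusted threshold were Col3a1 at 0.34 and 1 Col1a2 probe set at 0.40 (adjusted p = 0.527 and 0.551, limma).

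Of the 23 hippocampal line differences 19 were positive, with a median of 0.10, where 55.7% of all probe sets were positive, with a median of 0.02. Markers of pericytes and smooth muscle leaned the same way, with 13 of 13 differences positive (median 0.16) and none called, and microglia and macrophage markers had 14 of 16 positive (median 0.13). Choroid plexus and ependymal markers had 14 of 18 positive (median 0.06). Oligodendrocyte and neuronal markers leaned the other way, with 4 of 13 and 2 of 12 positive. Summed microglial signal was 4549 to 5301 in high line hippocampus and 4276 to 4843 in low line hippocampus. The 18S control, given above, did not overlap between the lines in hippocampus and was lower in the high line. The part of these measures in the line differences was not tested.

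Between the lines within the amygdala, none of the 23 probe sets was called, where 0.00222% of all probe sets, 1 in number, was called. At an unadjusted p under 0.05 there was 1 of 23, against 6.54% of all probe sets, and it was Slc22a6. Its means were 21.5 ± 13.6 in high line amygdala and 40.5 ± 16.7 in low line amygdala (SD, n = 6 each), a difference of -0.61 ± 0.23 (SE; adjusted p = 0.701, limma). The second Slc22a6 probe set differed by 0.03. Of the 23 differences 14 were negative, with a median of -0.09, against -0.01 over all probe sets. Of 18 markers of choroid plexus and ependyma 17 were negative as well, with a median of -0.31 and none called. Their sums are given above, and their part in the Slc22a6 difference was not tested.

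**Figure D3:**
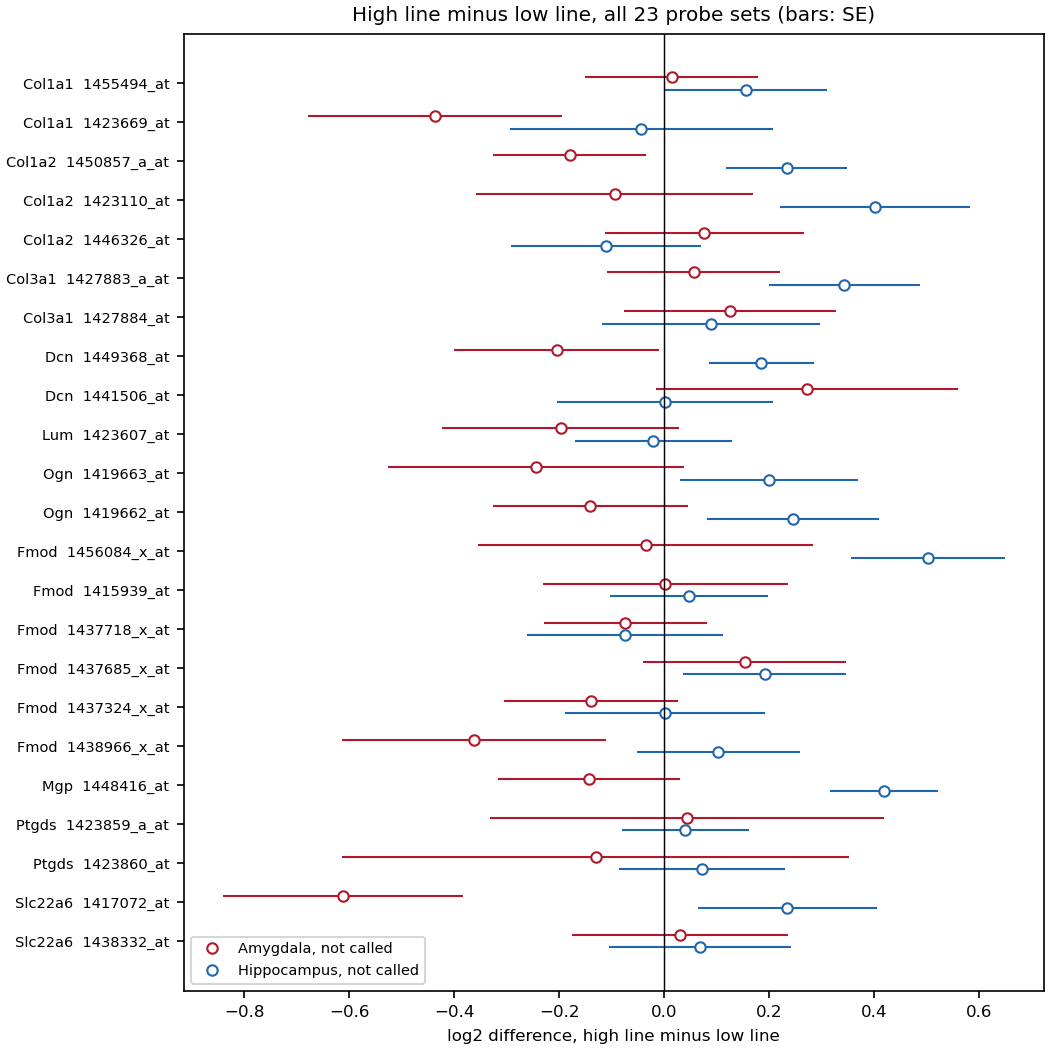
Difference of high line minus low line for all 23 probe sets, on the log2(signal + 16) scale, with amygdala drawn above hippocampus in each row. Bars are SE, and every point is open because none was called. The hippocampus points for Fmod (0.50) and Mgp (0.42) lie farthest right, and the amygdala point for Slc22a6 (-0.61) lies farthest left.

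The line effect in amygdala minus that in hippocampus was called for 0 of the 23 probe sets, and 0% of all probe sets were called. At an unadjusted p under 0.05 there were 3 of 23, against 7.08% of all probe sets. These were Slc22a6 at -0.85 ± 0.30, Mgp at -0.56 ± 0.21 and Col1a2 at -0.41 ± 0.19 (SE; adjusted p = 0.608, 0.624 and 0.685, limma).

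Pairs of these genes were mostly positively correlated between arrays of a tissue. Each tissue gave 45 pairs over 12 arrays, and p-values from two-sided permutation tests were adjusted over the 90 pairs. In the amygdala 37 of 45 pairs had a positive Pearson r, with a median of 0.318, and in the hippocampus 37 of 45 were positive too, with a median of 0.363. With line means removed, 30 of the 45 hippocampus pairs were positive with a median of 0.179, and without low line hippocampus array 1 the median was 0.201. Over all 165483528 pairs of named genes the median was 0.003 in the amygdala and 0.005 in the hippocampus. The arrays of a tissue share scaling and dissection, so the pairs are not independent of each other.

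In the amygdala 3 pairs were called by Pearson r, and they join Fmod, Ogn and Ptgds. Of all gene pairs in the amygdala 0.0154% had an r at or above the lowest of the 3. Fmod and Ptgds had r = 0.919 and Spearman rho = 0.930 (permutation p = 3e-05 and 5e-05, adjusted p = 0.0015 and 0.0045). The r was 0.912 within the high line and 0.942 within the low line. It was 0.922 without the 2 arrays farthest from the median of Fmod, where the call held (adjusted p = 0.0252, permutation). In each pair such arrays were chosen by 1 of the 2 genes only. Fmod and Ogn had r = 0.885 and rho = 0.874 (permutation p = 5e-05 and 3.7e-04, adjusted p = 0.0015 and 0.0167), with 0.904 in the high line and 0.940 in the low line. Ogn and Ptgds had r = 0.880 and rho = 0.762 (permutation p = 5e-05 and 0.0057, adjusted p = 0.0015 and 0.0945), with 0.914 in the high line and 0.918 in the low line. Without the 2 farthest arrays by Fmod the r of Fmod with Ogn was 0.790. Without the 2 farthest by Ogn that of Ogn with Ptgds was 0.759, and neither pair was called (adjusted p = 0.105 and 0.125, permutation). This leaves 10 arrays, with a narrower range of the gene used to choose them. Whether the loss came from the arrays left out, from the smaller number or from the narrower range was not tested.

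The single arrays show the pattern. Low line amygdala array 4 was highest of the 12 in all 3 genes, with 6352 for Ptgds, 139 for Fmod and 91.7 for Ogn. High line array 10 was second in Ptgds at 4866 and in Ogn at 58.3, and it read 98.5 in Fmod, behind low line arrays 3 and 4. High line array 12 was lowest in Ptgds at 1275 and in Ogn at 9.31, and low line array 2 was lowest in Fmod at 26.6. Both lines thus held high and low arrays. Without low line array 4 only 1 pair was called, without low line array 3 there were 6, and without high line array 7 there were 5.

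**Figure D4:**
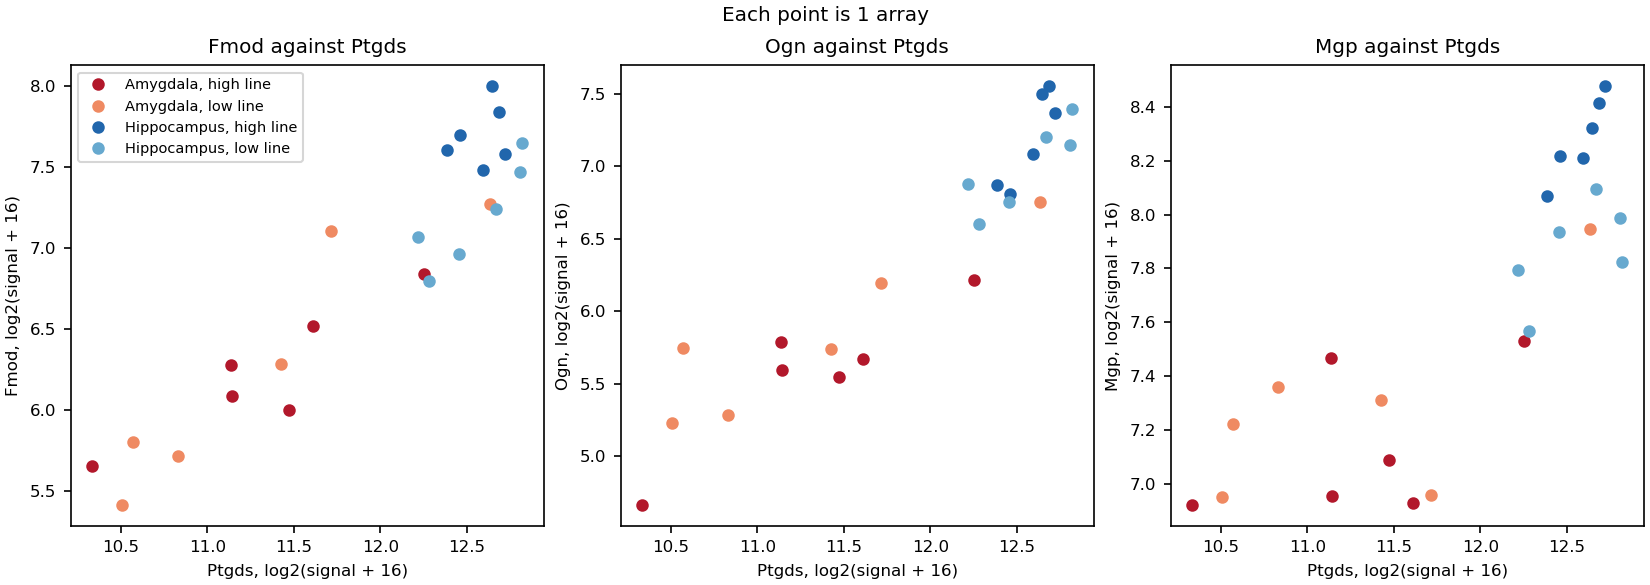
Fmod, Ogn and Mgp against Ptgds on the log2(signal + 16) scale, 1 point for each of the 24 arrays. Amygdala arrays of both lines run along a rising band (r of 0.919 for Fmod, 0.880 for Ogn and 0.608 for Mgp over 12 arrays), and the hippocampus arrays lie at the upper right.

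The other genes joined less closely. Col3a1 had an amygdala r of 0.763 with Ogn, 0.746 with Ptgds, 0.721 with Fmod and 0.694 with Mgp, none called by r, the first with an adjusted p of 0.0518 (rho = 0.846, adjusted p = 0.0279, permutation). With line means removed, Col3a1 was called with Ogn (r = 0.815) and with Fmod (r = 0.728), but not with Ptgds or Mgp (adjusted p = 0.0066 and 0.0220 for the called pairs, permutation). Mgp had the highest median r with its 9 partners in both tissues, 0.608 in amygdala and 0.590 in hippocampus, with no pair called. Dcn, which differed most between tissues, had a median r of 0.237 in amygdala, where its r with Fmod was 0.03. Col1a1 in amygdala and Lum in hippocampus had median r values below 0, of -0.09 and -0.12. In the hippocampus 0 pairs were called by r or by rho. The highest r there was 0.800 for Ogn with Ptgds (rho = 0.748, permutation p = 0.00255 and 0.00735, adjusted p = 0.0518 and 0.0945), with 0.886 in the high line and 0.860 in the low line, and 0.766 without the 2 farthest arrays by Ogn. With line means removed the r of Ogn with Ptgds was 0.815, and the pair was called (adjusted p = 0.032, permutation). Mgp with Fmod followed at 0.750 (adjusted p = 0.0678, permutation), and with line means removed this r was 0.407.

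**Figure D5:**
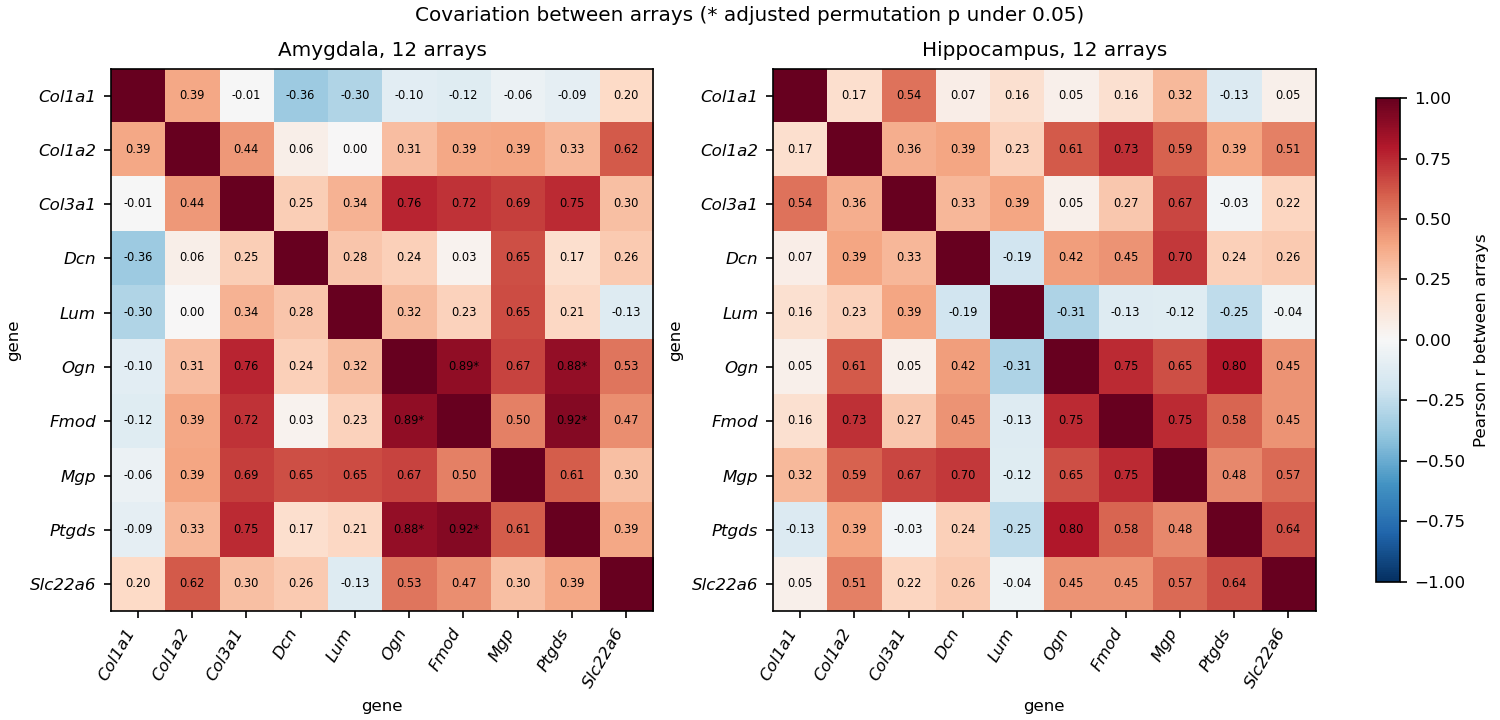
Pearson r between arrays for each pair of the 10 genes, over 12 amygdala arrays at the left and 12 hippocampus arrays at the right. Asterisks mark the 3 called pairs, all in amygdala and all among Ogn, Fmod and Ptgds. Blue cells gather in the Col1a1 row in amygdala and in the Lum row in hippocampus.

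Probe sets of 1 gene differed in how far they followed each other. The 2 Ptgds probe sets had r = 0.972 in amygdala and 0.964 in hippocampus (permutation, adjusted over 48 pairs, p = 0.00024 in both). The 2 Ogn probe sets had r = 0.764 in amygdala (adjusted p = 0.0477, permutation) and the brightest Fmod probe set had 0.888 with the second brightest (adjusted p = 0.00144, permutation). With the other 4 Fmod probe sets the brightest had r from -0.045 to 0.718 in amygdala, none called, and in hippocampus it had 0.442 with the second brightest and 0.085 to 0.729 with the rest, none called. The probe set pairs of Dcn had r of -0.242 in amygdala and -0.053 in hippocampus, and those of Col3a1 had 0.112 and -0.127, none of them called.

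Of 220 relations between the 10 genes and summed markers of other cell types or array measures, 0 were called. The highest was Mgp with the pericyte and smooth muscle sum over 12 amygdala arrays, with r = 0.870 and rho = 0.839 (permutation p = 2.8e-04 and 0.00117, adjusted p = 0.0616 and 0.129) and r = 0.759 without the 2 farthest arrays by the sum. Ptgds had r = 0.80 with that sum, Ogn 0.78 and Fmod 0.76 in the amygdala (adjusted p = 0.102, 0.149 and 0.102, permutation). In hippocampus Fmod had r = 0.79 with the same sum and 0.78 with the microglial sum (adjusted p = 0.102 for both, permutation), and with line means removed these were 0.51 and 0.52.

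Likeness to the brightest members, Mgp, Dcn and Ptgds, those of mean log2 signal over 7, was measured as the mean Pearson r with them. It was taken over 12 arrays with line means removed, among 7900 genes that also had a mean over 7. It does not stand for all 10 members. By the same measure Dcn with Ptgds had r = 0.187 in amygdala and 0.216 in hippocampus. In the amygdala the 10 most alike were Gfap at 0.750, the filament protein of astrocytes, and Ifitm2 at 0.728, an interferon-induced membrane protein, then Ergic3, Atp13a1, Samm50, Rusc1, Atp1b2, the metallothionein gene Mt1, Emc9 and Strn4, down to 0.672. In the hippocampus they were Sumo3 at 0.717 and Sec61a1 at 0.705, which encodes a channel subunit of the endoplasmic reticulum, then Tbc1d24, Plaat1, Lrrc4c, Trpc5, Nelfb, Socs6, Ppig and Nap1l2, down to 0.637. No gene was on both lists, and none was in the list of other meningeal fibroblast genes. Genes of that list with a mean of 7 or less, such as Thbd, were not among the 7900 searched. Their absence was fixed by the search and says nothing about how they covary.

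Other genes of the same cells and of the same matrix pathways were counted by tissue, where over all 18193 genes 3096 were called higher in the amygdala and 2377 lower, with a median difference of 0.005. Of 43 other meningeal fibroblast genes, 25 fell and 2 rose in the amygdala, with a median of -0.44. Gjb6 and Vtn of this list are also in the marker lists of other cell types. Those named by size were Aldh1a1 (-1.21 ± 0.08), which makes retinoic acid, the sulfate transporter gene Slc13a4 (-1.09 ± 0.27), the hyaluronan-degrading Cemip (-1.08 ± 0.06) and the transcription factor gene Osr1 (-1.03 ± 0.16; SE, adjusted p = 2.22e-11, 0.00351, 2.04e-12 and 1.79e-05, limma). Of 10 other small leucine-rich proteoglycans, 5 fell and none rose, with a median of -0.32. These were Omd at -0.81, Bgn at -0.64, Ecm2 at -0.56, Optc at -0.38 and Prelp at -0.36. Ecm2, Aspn (-0.28, not called), Omd and Ogn stand in a row on chromosome 13 in RefSeq's gene order, and Optc and Prelp lie beside Fmod on chromosome 1. Of the genes beside Lum on chromosome 10, Kera (-0.14) and Epyc (0.17) were not called.

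Of 19 collagens outside basement membranes, 5 rose and none fell in the amygdala, with a median of 0.18. Within the high line 1 rose and 1 fell, Col6a1 at 1.04 and Col5a3 at -0.38 (adjusted p = 8.43e-06 and 0.0403, limma), with a median of 0.07, and within the low line 3 rose and none fell, with a median of 0.27. Of all 18193 genes, 2270 rose and 1759 fell within the high line, and 1731 rose and 1393 fell within the low line. Over both lines Col6a1 rose by 1.11 ± 0.10, Col12a1 by 0.80 ± 0.15, Col23a1 by 0.76 ± 0.14 and Col27a1 by 0.48 ± 0.17 (SE; adjusted p = 6.72e-09, 2.41e-04, 2.51e-04 and 0.0423, limma). Of 24 genes of collagen synthesis and crosslinking 5 fell and 4 rose (median 0.03), among them the crosslinking oxidase Loxl1 at -0.92, the procollagen processing enhancer Pcolce at -0.88, the prolyl hydroxylase P4ha3 at 0.57 and the lysyl hydroxylase Plod2 at -0.44. Of 13 basement membrane genes 3 fell, the laminin chains Lama2 (-0.67), Lama1 (-0.45) and Lamb1 (-0.31), and none rose (median -0.13). Of 20 genes of elastic fibres and other matrix 5 fell and 2 rose (median -0.16), including fibronectin, Fn1, at -0.95, the protease inhibitor Timp2 at 0.89, and the thrombospondins Thbs4 at -0.70 and Thbs2 at -0.47. Of 15 matrix-regulating signals 2 fell and 2 rose (median 0.07), namely Tgfb2 at -1.32, Ccn2 at 0.59, Ltbp1 at -0.34 and Smad3 at 0.21. No gene of these 7 lists was called between the lines in either tissue. The 2 genes of lowest p in each list are given here as values. In the amygdala these high minus low differences were 0.23 for Cemip and -0.30 for Foxd1 among the fibroblast genes, 0.52 for Optc and -0.10 for Chad among the proteoglycans, and -0.38 for Col5a3 and 0.45 for Col18a1 among the collagens. They were 0.19 for Plod3 and -0.19 for P3h1 in collagen synthesis, 0.16 for Col4a1 and -0.49 for Lama4 in the basement membrane, 0.37 for Mmp14 and 0.44 for Tnc in other matrix, and -0.58 for Ccn2 and -0.24 for Tgfb2 among the signals. The lowest adjusted p of these 14 was 0.606, for Optc (limma). In the hippocampus they were 0.41 for Thbd and 0.49 for Aldh1a2 among the fibroblast genes, 0.48 for Bgn and 0.30 for Kera among the proteoglycans, and 0.33 for Col16a1 and 0.27 for Col5a3 among the collagens. They were 0.23 for P4ha1 and 0.22 for P3h1 in collagen synthesis, 0.23 for Nid1 and 0.37 for Lama5 in the basement membrane, 0.42 for Fbln5 and 0.29 for Mmp14 in other matrix, and 0.45 for Ccn2 and -0.25 for Smad4 among the signals. The lowest adjusted p of these 14 was 0.244, for Ccn2 (limma).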

How the data were processed

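Each array (Affymetrix Mouse430_2, per the platform annotation used) gave 1 signal per probe set. The deposited intensity values were linear and had been scaled by the authors so that each array's mean, without the top and bottom 2% of probe sets, was 150, as the values show. Which algorithm and software made the signals, and with what background step, is not given in the sources used here. Of 45101 probe sets 64 controls were left out. Of the others 34945 had 1 symbol, 932 several and 9160 none. Groups came from the labels. Values were tested as log2(signal + 16) with limma 3.58.1 in R 4.3.3, on 12 arrays for the lines within a tissue and on all 24 for the rest, with adjustment over 45037 probe sets. Permutation tests used 100000 resamples (SciPy 1.17.1). The number of arrays limits the precision. The scripts were tested on simulated data. All 10 genes are named. For the tissue and the 2 line comparisons, up to 4 called genes of each list were named by size, or 2 of lowest p where none was called. Prelp, Aspn, Kera and Epyc were also named by tissue, after their values were seen. The genes and lists were chosen with earlier results of these data known. Amygdala and hippocampus arrays share numbers, but the labels do not say that a number marks the same mouse, so they were not paired. Same-numbered arrays did not deviate together (12 numbers, r from -0.0545 to 0.0454). This cannot tell whether they came from the same mouse, because a mouse's 2 tissues need not deviate alike.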

Additional observations from a re-analysis of the deposited data

Results flagged for a closer look

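Among 92 groups of 6 arrays, 1 for each of the 23 probe sets and 4 groups, 7 held 1 array far from the others for the group's range by Dixon's criterion. Chance flags about 1 group in 20. Values are log2(signal + 16). Lum on high line amygdala array 9 was 4.700, the lowest of its group, with the next at 5.457. Fmod (1437718_x_at) on high line amygdala array 12 was 5.385, with the next at 5.606. Slc22a6 (1417072_at) on low line hippocampus array 3 was 4.907, with the next at 5.601, and its other probe set on low line amygdala array 6 was 4.135, with the next at 4.858. Col1a2 (1450857_a_at) on low line amygdala array 6 was 6.223, with the next at 6.555. Col1a1 was high on low line amygdala array 5 at 6.483 (1455494_at), with the next at 5.752, and on high line amygdala array 8 at 5.026 (1423669_at), with the next at 4.514. The 7 values fall on 6 arrays, of which only low line amygdala array 6 appears more than once.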

How the results depend on the processing

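Under other pseudocounts (1 and 64), quantile normalization, median centring, a filter on dim probe sets, a robust intensity trend and the fit of all 24 arrays, 0 of the 23 probe sets were called between the lines in either tissue, and 0 for the contrast of the 2 line effects. With 1 array left out these 3 counts stayed at 0, the tissue count lay between 15 and 17, the high line count between 12 and 17 and the low line count between 8 and 12. The pseudocounts, normalizations, filter and robust trend gave tissue counts of 13 to 15. The filter removed the dimmest 40% of probe sets, so the dimmer members were not tested under it, by tissue or by line. Among those removed were 1437324_x_at and 1438966_x_at of Fmod, both called by tissue in the main fit. No probe set that was tested under these settings lost its tissue call. Leaving out hippocampus array 7 is the same as leaving out that high line replicate. With array number as a fixed replicate block, 16 probe sets were called by tissue, 15 in the high line, 9 in the low line and 0 for the difference of line effects, and a random block gave 15, 16, 11 and 0. The second Col1a2 probe set (1423110_at) kept its high line call in 11 of 32 alternatives.

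In the amygdala, 3 called pairs became 5 with line means removed and 1 without the 2 farthest arrays, and ranged from 1 to 6 with 1 array left out. In the hippocampus, 0 became 1 with quantile normalization and 1 with line means removed, and ranged from 0 to 2 with 1 array left out: 2 without low line array 2 or high line array 7, and 1 without low line array 3, 4, 5 or 6 or high line array 8. The median r over the 45 hippocampus pairs, 0.363, was 0.179 with line means removed and 0.201 without low line array 1. The cause was not tested. Signals near the floor limit the dim probe sets: the tissue difference of the second Col1a1 probe set (1423669_at) was -1.01 with a pseudocount of 1, against -0.41.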

Other observations

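Astrocyte and neuronal genes, which are not matrix genes, also differed by tissue. Of 12 astrocyte markers 6 were called lower in the amygdala and 4 higher (limma), with sums of 18286 to 20680 in high line amygdala and 17895 to 19495 in low line amygdala, against 21345 to 22242 in high line hippocampus and 20369 to 22866 in low line hippocampus. Of 12 neuronal markers 7 were called lower in the amygdala and 4 higher. Of 16 markers of microglia and macrophages 5 were called higher in the amygdala and 2 lower, with a median difference of 0.04. For comparison, of all 18193 genes 3096 were called higher in the amygdala and 2377 lower. The 4 measured red blood cell markers were not called by tissue, with sums of 44.1 to 70.7 in high line amygdala and 43.9 to 88.7 in low line amygdala, against 38.2 to 95.7 in high line hippocampus and 32.8 to 73.0 in low line hippocampus.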
